A study of Mus musculus with 28 samples.

Results

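Cytochrome P450 genes were followed in mouse fibroblasts, in endoderm progenitors made from them with chemicals, and in cells labelled as hepatocyte-like made from those progenitors. The members are the genes of the deposited tables whose symbol has the P450 form Cyp, a family number, a subfamily letter and a gene number. The retinoic acid, cholesterol and classical bile acid synthesis genes Cyp26a1, Cyp26b1, Cyp26c1, Cyp51, Cyp7a1, Cyp8b1 and Cyp27a1 were left out by name. This gave 88 of the 31673 genes, in 14 families and 33 subfamilies. The largest subfamilies were Cyp2c with 15 genes, Cyp4f with 9, Cyp2d and Cyp2j with 8 each, and Cyp3a with 7. The rule used names only and no measured value, though it was set with earlier results of these data known.

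RNA sequencing covered 28 libraries in 9 groups, and the series asks whether chemicals alone can bring fibroblasts into the endoderm lineage. MEF_ciHep (3 libraries) and MNF_ciHep (2 libraries) are cells labelled as hepatocyte-like and derived from chemically induced endoderm progenitors of passage 3 to 10, starting from embryonic or neonatal fibroblasts. Primary hepatocytes from adult liver at passage 0 (pHep, 2 libraries) are the cells they are set against. MNF_ciEPC (2 libraries, passages 2 and 3) and MEF_ciEPC (10 libraries) are the progenitors, and ESC_EPC (2 libraries) are endoderm progenitors from embryonic stem cells of passage 10 to 15. The MEF_ciEPC libraries come from 2 numbered series, at passages 2, 3, 4, 6, 10 and 22 in series 1 and at passages 1, 5, 10 and 22 in series 2. The starting cells were fibroblasts of E13.5 embryos (MEF, 3 libraries, passage 2) and neonatal dermal fibroblasts (MNF, 2 libraries, passage 2), and the ESC group is the OG2ES line at passage 5 (2 libraries). All groups carry an Oct4-GFP transgene on CBA/CaJ X C57BL/6J stock. For MEF, MEF_ciEPC, MEF_ciHep, ESC_EPC and ESC the transgenic mice had been crossed to 129Sv/Jae females, which was not stated for MNF, MNF_ciEPC, MNF_ciHep and pHep. Strain and fibroblast source therefore cannot be told apart. The labels do not say whether replicates were separate cultures or animals, so p-values measure only the spread between these samples.

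P450 enzymes are heme proteins of the endoplasmic reticulum or mitochondria that insert an oxygen atom into lipophilic compounds, with electrons from P450 reductase (Por) or from ferredoxin (Fdx1). In the adult liver, families 1 to 3 oxidise drugs, pollutants and steroids. Family 4 hydroxylates fatty acids and eicosanoids, and the mitochondrial and sterol families make or break down steroid hormones, oxysterols and vitamin D. Hepatocyte transcription of many of them depends on HNF4A, and the receptors AhR, CAR, PXR and PPAR-alpha raise particular members when their ligands are present.

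The promoters of 5 members, picked by name from those described below for MEF_ciHep and pHep, are shown. Each window runs from 250 bases before to 50 bases after the RefSeq start on GRCm38.p6, in the direction of transcription. Capitals mark TATAAA and CAAAGTCC on either strand. Cyp2s1 (chr7:25816476-25816775, minus strand) holds neither motif, and the other 4 hold CAAAGTCC. They are Cyp2c65 (chr19:39060756-39061055, plus strand), Cyp2c70 (chr19:40187237-40187536, minus strand), Cyp3a11 (chr5:145879805-145880104, minus strand) and Cyp2a5 (chr7:26835089-26835388, plus strand). These 5 do not stand for the family, as CAAAGTCC was in 15.4% of all member windows. Cyp3a13, Cyp2d26 and Cyp2d10, also among the highest in MEF_ciHep, are not shown. They were not among the 12 members in which CAAAGTCC was found.
Cyp2s1: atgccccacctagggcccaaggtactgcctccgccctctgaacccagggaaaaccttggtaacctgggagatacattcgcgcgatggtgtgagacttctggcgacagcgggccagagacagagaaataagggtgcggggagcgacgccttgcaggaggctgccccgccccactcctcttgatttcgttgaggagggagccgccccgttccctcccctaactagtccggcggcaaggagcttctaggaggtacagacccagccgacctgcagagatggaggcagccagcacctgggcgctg
Cyp2c65: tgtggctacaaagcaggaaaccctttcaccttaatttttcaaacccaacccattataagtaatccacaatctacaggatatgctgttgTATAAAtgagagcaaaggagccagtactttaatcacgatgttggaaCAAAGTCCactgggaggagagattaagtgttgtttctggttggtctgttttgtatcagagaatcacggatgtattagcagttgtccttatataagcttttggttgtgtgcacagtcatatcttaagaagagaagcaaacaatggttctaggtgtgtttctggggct
Cyp2c70: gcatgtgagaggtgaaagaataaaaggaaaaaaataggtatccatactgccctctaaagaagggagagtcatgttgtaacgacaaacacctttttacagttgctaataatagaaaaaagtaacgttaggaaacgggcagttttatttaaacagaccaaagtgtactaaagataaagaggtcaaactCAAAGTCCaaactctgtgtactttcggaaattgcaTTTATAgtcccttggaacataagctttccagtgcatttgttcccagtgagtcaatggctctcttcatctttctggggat
Cyp3a11: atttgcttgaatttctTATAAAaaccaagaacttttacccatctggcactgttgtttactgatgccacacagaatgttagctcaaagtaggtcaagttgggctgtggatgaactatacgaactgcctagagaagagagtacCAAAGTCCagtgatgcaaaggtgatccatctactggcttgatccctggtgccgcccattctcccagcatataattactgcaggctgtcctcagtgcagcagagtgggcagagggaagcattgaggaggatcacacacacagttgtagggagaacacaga
Cyp2a5: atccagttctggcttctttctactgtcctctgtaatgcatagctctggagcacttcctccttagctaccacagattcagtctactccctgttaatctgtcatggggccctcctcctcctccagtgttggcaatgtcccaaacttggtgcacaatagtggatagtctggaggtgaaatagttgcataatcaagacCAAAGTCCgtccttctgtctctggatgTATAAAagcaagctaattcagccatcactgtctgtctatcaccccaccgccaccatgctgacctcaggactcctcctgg

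RefSeq windows were matched to 68 of the 88 members, as 78 windows of 32851 in the genome. CAAAGTCC, a sequence of the type bound by HNF4, was searched on both strands together with its reverse GGACTTTG and does not overlap the other motifs searched. It was present in 12 of the 78 member windows (15.4%), against 1.42% of all windows. These windows belong to 12 genes, 7 of them Cyp2c genes, so many of them share ancestry and are not independent. In all 12 genes the match lay on the strand of the gene, between 45 and 200 bases upstream of the start. Of the windows of members with a mean of at least 10 TPM (a transcript level scaled by gene length and library size), 28.6% of 14 windows held it for MEF_ciHep, 0 of 7 windows for MNF_ciHep and 25% of 20 windows for pHep. TATAAA, the TATA box core, searched with its reverse TTTATA, was in 37.2% of member windows and 13.6% of all windows. In the same order of groups, 50%, 0% and 45% of the windows of members at 10 TPM held it. The nuclear receptor element AGGTCA (reverse TGACCT) was in 28.2% of member windows and 16.3% of all windows. GTTAAT (reverse ATTAAC), a sequence of the type bound by HNF1, was in 12.8% against 7.1%. GCGTG (reverse CACGC), the core of the AhR element, was in 21.8% against 32.4%. A match describes the letters in these windows and was not tested for binding.

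Of the 88 members, 71 reached a mean of 1 TPM in at least 1 group, 4 had no count in any library (Cyp2j7, Cyp2j8, Cyp2j11 and Cyp4a29), and 18 had fewer than 10 counts in all 28 libraries together. Depth ranged from 1439670 to 6133147 expected counts per library. Means of at least 1 TPM were found for 38 members in MEF_ciHep, 21 in MNF_ciHep, 55 in pHep, 14 in MNF_ciEPC, 17 in MEF_ciEPC, 16 in ESC_EPC, 13 in MEF, 17 in MNF and 15 in ESC. At 10 TPM the counts were 17, 8, 26, 6, 5, 5, 4, 8 and 4 in the same order of groups. The highest group mean was that of pHep for 37 of the 71 members, of MEF_ciHep for 14, of ESC_EPC for 6, of MNF_ciHep for 5, of MNF for 4, of ESC for 3 and of MNF_ciEPC for 2. Cyp20a1 (an orphan P450), Cyp2j6 (an arachidonic acid epoxygenase), and the leukotriene and fatty acid hydroxylases Cyp4f13, Cyp4f16 and Cyp4f17 had a mean of at least 1 TPM in all 9 groups.

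The summed level of the 88 members was as high in MEF_ciHep, at 970.5 to 1237 TPM, as in pHep, at 1018 to 1103 TPM, and the ranges overlapped. MNF_ciHep libraries summed to 194 and 285 TPM, between the MNF_ciEPC libraries at 150.0 to 169 TPM and the MNF libraries at 320.1 and 323 TPM. The sums were 117 to 249 TPM in MEF_ciEPC, 158 to 164 TPM in ESC_EPC, 165 to 226 TPM in MEF and 107 to 116 TPM in ESC. The members took different shares of these totals. Cyp2s1, an epithelial form found mainly outside the liver, made up 42.7%, 18.2% and 41.1% of the summed TPM in the 3 MEF_ciHep libraries, against 0.118% and 0.321% in the pHep libraries. Without Cyp2s1, set apart after its values were seen, every MEF_ciHep library summed lower than both pHep libraries.

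**Figure D1:**
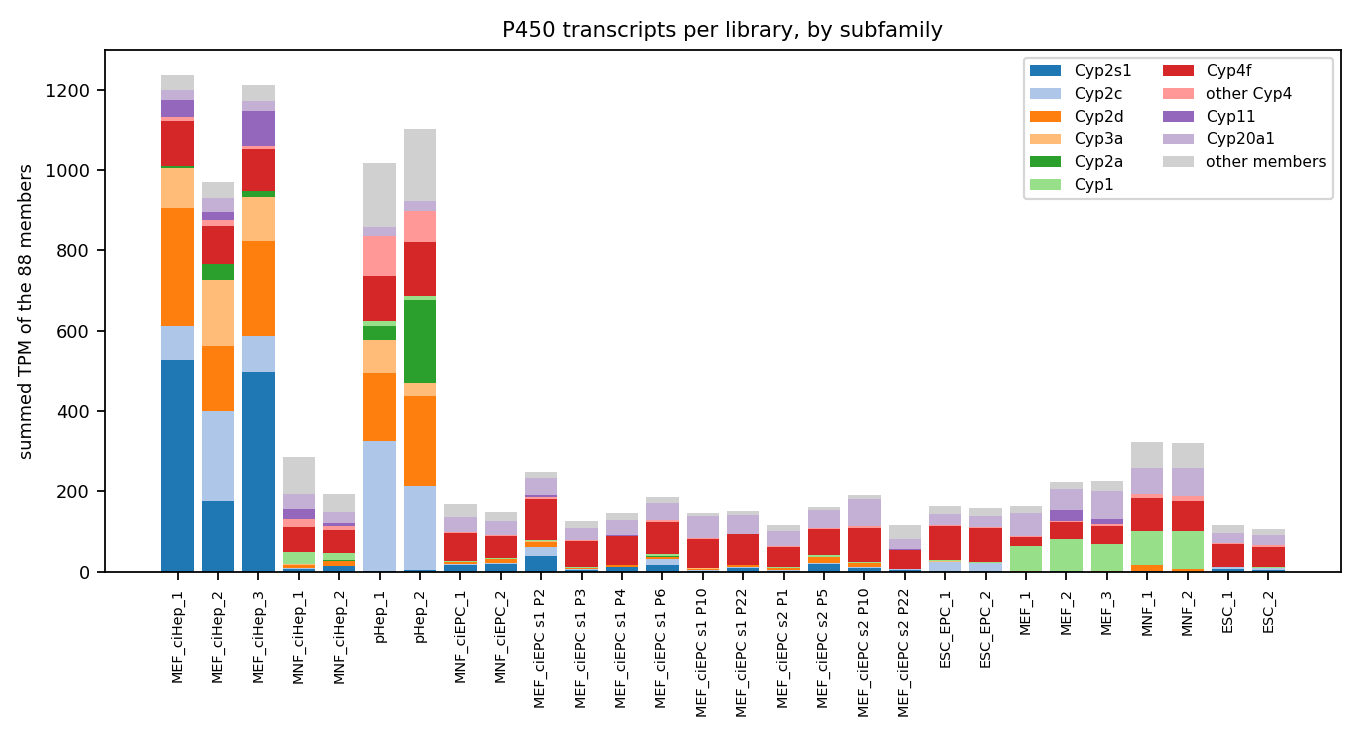
Summed TPM of the 88 members in each of the 28 libraries, stacked by subfamily or gene, with the groups from left to right and s1 and s2 marking the MEF_ciEPC series. MEF_ciHep and pHep libraries stand between 970.5 and 1237 TPM and all others at or under 323 TPM, with Cyp2s1 filling up to 42.7% of a MEF_ciHep bar.

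The liver subfamilies differed in how far each kind of hepatocyte-like cell carried them. Cyp2d summed to 163 to 294 TPM in MEF_ciHep, 9.07 to 11.9 TPM in MNF_ciHep and 169 to 224 TPM in pHep. Cyp2c summed to 83.4 to 223 TPM in MEF_ciHep, 0 to 0.69 TPM in MNF_ciHep and 211 to 325 TPM in pHep. Cyp3a, which holds the main drug-metabolising forms, summed to 101 to 162 TPM in MEF_ciHep, 0.38 to 0.55 TPM in MNF_ciHep and 32.0 to 82.0 TPM in pHep. Every MEF_ciHep library thus stood above both pHep libraries for Cyp3a, while the ranges overlapped for Cyp2d and Cyp2c. Cyp3a13, Cyp2c55 and Cyp2c65 made up much of these sums in MEF_ciHep. Without Cyp3a13, Cyp3a summed to 13.9, 46.0 and 12.3 TPM in MEF_ciHep and 32.6 and 19.7 TPM in pHep, with overlap. Without the intestinal forms Cyp2c55 and Cyp2c65, Cyp2c summed to 24.8, 58.4 and 43.1 TPM in MEF_ciHep, below both pHep libraries at 325 and 211 TPM. These genes were left out after their values were seen, so the sums are descriptions. Cyp2a summed to 4.78 to 40.8 TPM in MEF_ciHep, 0 to 1.49 TPM in MNF_ciHep and 35.0 to 207 TPM in pHep, also with overlap of the MEF_ciHep and pHep ranges. The fatty acid hydroxylases Cyp4a summed to 1.49 to 2.72 TPM in MEF_ciHep, 0 TPM in MNF_ciHep and 21.0 to 28.9 TPM in pHep, without overlap. Of the 26 members at 10 TPM or more in pHep, 21 reached 1 TPM and 11 reached 10 TPM in MEF_ciHep, and 5 were at or above the pHep mean. In MNF_ciHep, 10 of the 26 reached 1 TPM, 4 reached 10 TPM, 1 was at or above the pHep mean and 11 had no count.

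**Figure D2:**
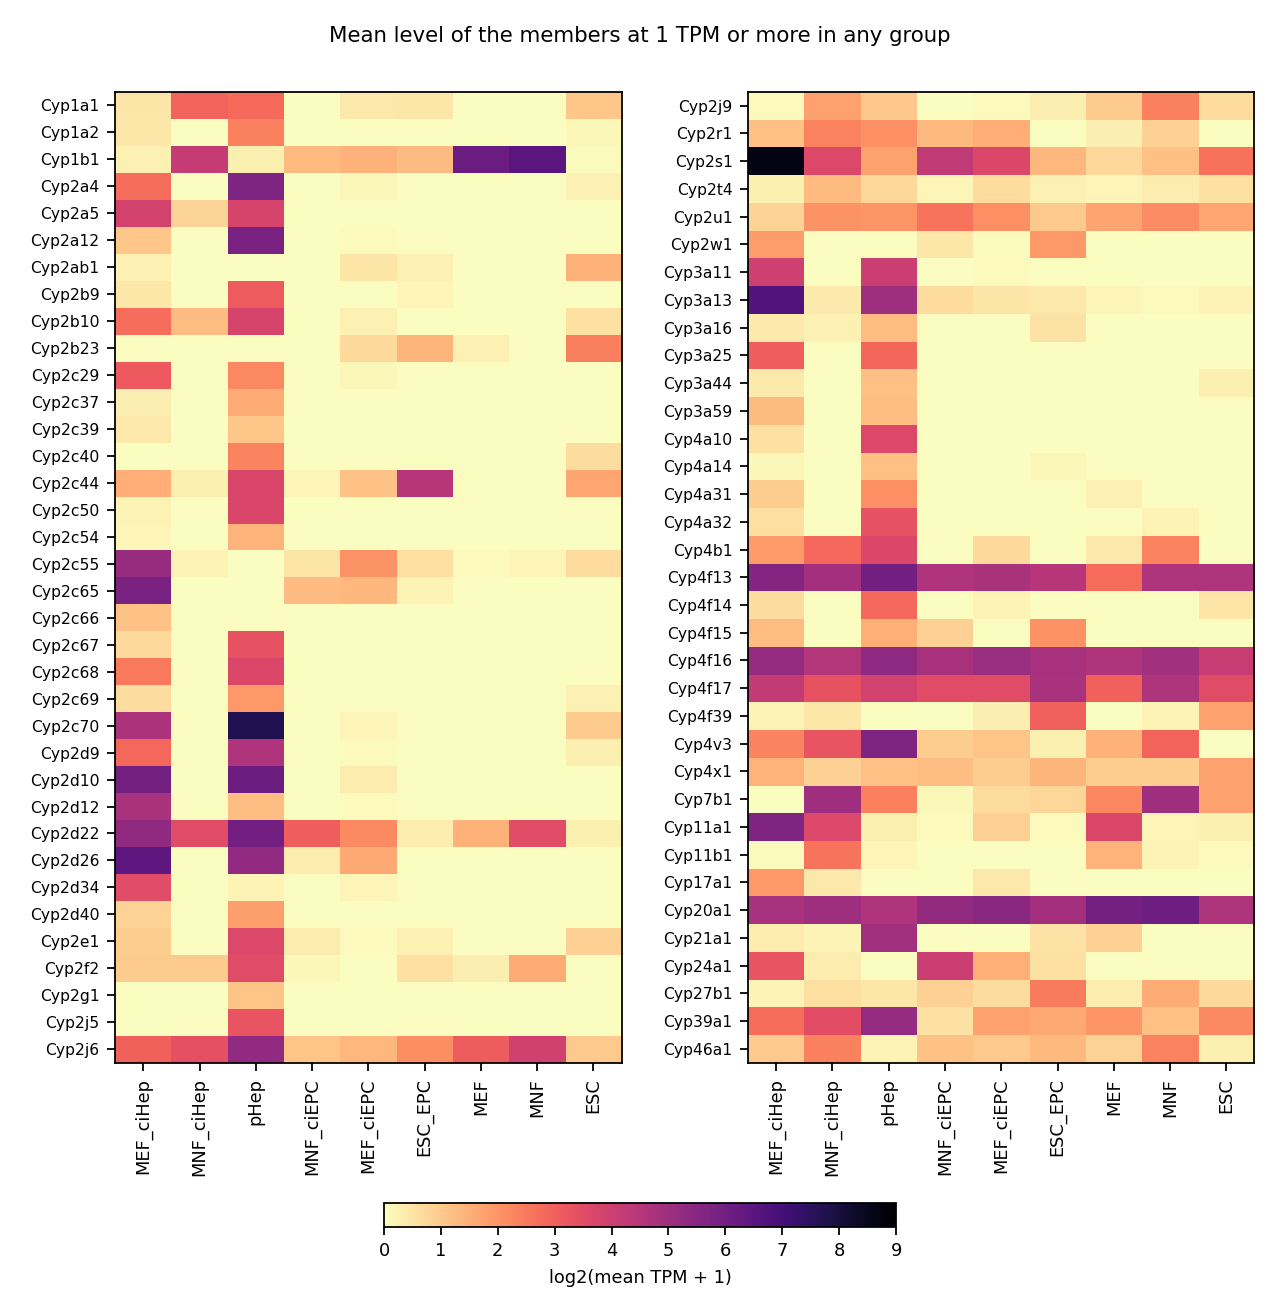
Mean level of the 71 members that reached 1 TPM in any group, as log2(mean TPM + 1) on the colour scale, with genes in rows and the 9 groups in columns. The pHep column holds the highest group mean in 37 rows, and MEF_ciHep follows it for Cyp2d, Cyp3a and part of Cyp2c. Cyp20a1, Cyp4f13, Cyp4f16 and Cyp4f17 stand at 1 TPM or more in all columns.

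Of the 5 members with a mean of 1 TPM or more in all 9 groups, Cyp20a1 had 25, 34.6 and 23.1 TPM in MEF_ciHep, 36.2 and 26.3 TPM in MNF_ciHep and 22.3 and 24.7 TPM in pHep, and its highest means were in the fibroblasts, with 57.2, 52.5 and 70.1 TPM in MEF and 63.6 and 69.7 TPM in MNF. Cyp4f16 had 35.9, 36.5 and 37.1 TPM in MEF_ciHep, 27.8 and 17.5 TPM in MNF_ciHep and 40.3 and 39.3 TPM in pHep, against 17.1 and 15.5 TPM in ESC, the lowest mean of the 9 groups. The 9 Cyp4f genes together summed to 94.6 to 112 TPM in MEF_ciHep, 57.4 to 62.8 TPM in MNF_ciHep and 113 to 134 TPM in pHep. Of the 71 members at 1 TPM or more in some group mean, 15 had their highest mean outside MEF_ciHep, MNF_ciHep and pHep. Among them, Cyp2b23 had 1.92 and 1.37 TPM in ESC_EPC, 4.24 and 4.5 TPM in ESC and 0 TPM in every pHep library. Its highest value in any library was 6.1 TPM, in the library labelled MEF_ciEPC series 2 passage 22, which resembled ESC as described next. The fibroblast sums of family 1 were 61.7 to 78.5 TPM in MEF and 86.5 to 94.7 TPM in MNF, with Cyp1a1 and Cyp1a2 at 0 TPM in these 5 libraries.

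The labels were checked on marker genes. Alb, which encodes albumin, had 1035, 1817 and 2409 TPM in MEF_ciHep, 0 and 0.56 TPM in MNF_ciHep and 14799.8 and 11138 TPM in pHep. The 6 hepatocyte markers together summed to 11365 to 24499.8 TPM in MEF_ciHep, 24.5 to 98.7 TPM in MNF_ciHep and 13768 to 27088 TPM in pHep, so the data go against the hepatocyte-like label of MNF_ciHep. The overlap of MEF_ciHep and pHep came from Apoa1, an apolipoprotein, with 22586, 8883 and 19036 TPM in MEF_ciHep and 7530.1 and 1408 TPM in pHep. Alb, Ttr, Serpina1c, Tat and Cps1 were each lower in all MEF_ciHep libraries than in both pHep libraries, and these 5 summed to 1914 to 3112 TPM in MEF_ciHep and 12359 to 19558 TPM in pHep. The 6 fibroblast markers summed to 29.8 to 46.1 TPM in MEF_ciHep, 1131 to 2392 TPM in MNF_ciHep, 5.37 to 147 TPM in pHep, 478 to 587 TPM in MNF_ciEPC and 19524 to 19555 TPM in MNF. Pdgfra, which marks mesenchyme, made up most of the MNF_ciEPC sum. Without it the other 5 summed to 2.09 to 12.2 TPM in MEF_ciHep, 825 to 2145 TPM in MNF_ciHep, 4.72 to 142 TPM in pHep and 12.4 to 36.2 TPM in MNF_ciEPC. The library labelled MEF_ciEPC series 2 passage 22 correlated at 0.953 to 0.956 with the ESC libraries and at 0.673 to 0.739 with the other MEF_ciEPC libraries. The Y-linked gene Ddx3y had 11.8 and 9.06 TPM in MNF_ciHep, 0 TPM in every MNF_ciEPC library and 19.1 and 13.2 TPM in MNF, and Xist, expressed from the inactive X, had 47.8 and 48.9 TPM in MNF_ciHep, 439.9 and 522 TPM in MNF_ciEPC and 114 and 153 TPM in MNF. The Y-linked transcript found in MNF and MNF_ciHep was thus listed at 0 in MNF_ciEPC, and these 2 samples carry MEF in another label field, so the comparisons with MNF_ciEPC are between libraries as labelled and not along 1 shown lineage. In the deposited tables, the median of length minus effective length over long genes, plus 1, showed 3 kinds of library. The value was 49.5 to 50.6 bases in both ciHep groups, pHep and MEF_ciEPC, 74.3 to 74.5 in MNF_ciEPC, MEF, MNF and ESC, and 187 to 196 in ESC_EPC. Where groups of different kinds are compared, cell group and kind of library cannot be told apart. This touches all comparisons below except those among the ciHep and pHep groups, MEF_ciHep against MEF_ciEPC, MNF_ciEPC against MNF and the passages of MEF_ciEPC.

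In the tests, 52 of the 88 members passed the low-count filter and 36 did not. A member that passed only through the group where it is high had to differ. Calls come from edgeR's quasi-likelihood test with all 9 groups in the fit, and needed a difference of at least 2-fold and an adjusted p (Benjamini-Hochberg, over the 16062 genes tested) under 0.05. Adjusted p-values below are from that test. A fold printed as at least a value sets the lower group, which had no count, at 3 counts over all its libraries. A count ratio with its 95% counting interval is given where the lower group had 1 to 3 counts. Intervals and bounds cover counting error only. Fewer cells expressing a gene and less RNA per cell cannot be told apart in these bulk samples. Members of Cyp2a, Cyp2b, Cyp2c, Cyp2d, Cyp2j, Cyp3a, Cyp4a and Cyp4f have near-identical copies and can share reads, and 55 members had fractional expected counts, so the split among such copies is uncertain. No strand setting of the counting is given in the sources used here, so reads of members that overlap another annotated gene may be mixed with it. These include Cyp2s1 (Gm26707 and Gm45226), Cyp4v3 (Gm45753), Cyp24a1 (Pfdn4), Cyp11a1 (Gm17322), Cyp11b1 (Gml2) and Cyp2u1 (4930534D22Rik).

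Maturation of the embryonic fibroblast line was addressed by MEF_ciHep against MEF_ciEPC, with the MEF_ciEPC libraries of each series summed to 1 sample. Of the 88 members, 29 were higher and 2 lower, where 17.8% of all genes tested were called higher and 14.8% lower. The median log2 difference was 3.81 over the 52 members tested and -0.07 over all genes. With groups that had no count set at the 3-count bound, the median over these members was 2.51. Families 1 to 3 gave 20 higher and 2 lower of 59 members, of which 31 were tested. Family 4 gave 6 higher and 0 lower of 17 (11 tested), and the steroid synthesis genes 2 higher and 0 lower of 6 (4 tested).

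Cyp2s1 had 528, 177 and 498 TPM in MEF_ciHep, against a median of 9.57 TPM over the 10 MEF_ciEPC libraries (lowest 1.9, highest 38.5). The groups did not overlap, and it was 45.4-fold higher (log2 difference 5.50, SE 0.55, adjusted p = 1.94e-06). The 4 bile duct markers, which mark another epithelium, summed to 2496 to 3836 TPM in MEF_ciHep, 1109 to 2256 TPM in pHep and 198 to 1450.4 TPM in MEF_ciEPC. Most of the MEF_ciHep sum was Krt19, with 1869, 1793 and 2662 TPM in MEF_ciHep, and Sox9 of the same list had 6.08, 2.78 and 2.97 TPM in MEF_ciHep and a median of 8.21 TPM over the 10 MEF_ciEPC libraries (lowest 0, highest 22.9), with overlap. Cyp2s1 was at 1.2 and 3.54 TPM in pHep, where these markers were also present, and their part in its level was not tested. Cyp3a13, a drug-metabolising form of liver and gut, had 87.4, 116 and 97 TPM in MEF_ciHep, against a median of 0.23 TPM over the 10 MEF_ciEPC libraries (lowest 0, highest 2.13). It was 306-fold higher (log2 difference 8.26, SE 0.71, adjusted p = 6.51e-07), with the 3 MEF_ciHep libraries above all MEF_ciEPC libraries. Cyp3a11, the main hepatic form of its subfamily in mice, varied more, with 4.19, 33.5 and 5.27 TPM in MEF_ciHep and a median of 0 TPM over the 10 MEF_ciEPC libraries (lowest 0, highest 0.34). It was higher by a count ratio of 337 (95% counting interval 92.5 to 2798, adjusted p = 0.00256).

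Of the Cyp2d subfamily, whose human counterpart metabolises many drugs, 6 of 8 members were called higher. Cyp2d26 had 149.9, 33.1 and 78.6 TPM in MEF_ciHep, against a median of 0.86 TPM over the 10 MEF_ciEPC libraries (lowest 0, highest 10.5), and was 42.1-fold higher (log2 difference 5.40, SE 0.95, adjusted p = 0.00124). Cyp2d10 had 54, 53 and 72.7 TPM in MEF_ciHep, against a median of 0 TPM over the 10 MEF_ciEPC libraries (lowest 0, highest 1.56), and was 312-fold higher (log2 difference 8.28, SE 0.62, adjusted p = 1.14e-05). Both were above every progenitor library in every MEF_ciHep library. Cyp2d22, which was already present in the progenitors, had 40.0, 25.9 and 52.4 TPM in MEF_ciHep and a median of 3.13 TPM over the 10 MEF_ciEPC libraries (lowest 0.74, highest 8.66), and was 13.4-fold higher (log2 difference 3.75, SE 0.50, adjusted p = 2.62e-05). Cyp2d12 had 36.6, 18.9 and 23.8 TPM in MEF_ciHep, and a single progenitor library held its only count there. It was higher by a count ratio of 549 (95% counting interval 97.6 to 21791, adjusted p = 0.000187).

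Of the 15 Cyp2c members, 5 were called higher. Cyp2c65, a form of the gastrointestinal tract, had 45, 88.2 and 32.3 TPM in MEF_ciHep, against a median of 0.55 TPM over the 10 MEF_ciEPC libraries (lowest 0, highest 7.41), and was 50.5-fold higher (log2 difference 5.66, SE 0.79, adjusted p = 0.000288). Cyp2c55, another intestinal form, had 13.6, 76.8 and 14.1 TPM in MEF_ciHep, against a median of 0.16 TPM over the 10 MEF_ciEPC libraries (lowest 0, highest 16.3). The highest progenitor library reached into the MEF_ciHep range, and Cyp2c55 was 18.5-fold higher (log2 difference 4.21, adjusted p = 0.00324). Cyp2c70, which makes the muricholic acids of mouse bile, had 14.4, 30.7 and 28.6 TPM in MEF_ciHep and a median of 0 TPM over the 10 MEF_ciEPC libraries (lowest 0, highest 0.6), and was higher by a count ratio of 294 (95% counting interval 80.6 to 2444, adjusted p = 1.93e-05). The 4 intestinal epithelium markers summed to 96.3 to 130 TPM in MEF_ciHep, 24.9 TPM in both MNF_ciHep libraries and 8.81 to 9.72 TPM in pHep. Vil1 (villin) had 87.5, 85.7 and 59.6 TPM in MEF_ciHep, while Lgr5, of the intestinal stem cell, had 0 TPM in every MEF_ciHep library. The part of these cells in the Cyp2c55 and Cyp2c65 levels was not tested.

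Among steroid and sterol enzymes, Cyp11a1, which cleaves the cholesterol side chain at the start of steroid hormone synthesis, had 43.8, 18.9 and 88.6 TPM in MEF_ciHep, against a median of 0.24 TPM over the 10 MEF_ciEPC libraries (lowest 0, highest 4.11). All MEF_ciHep libraries were above all progenitor libraries, and it was 80.8-fold higher (log2 difference 6.34, SE 1.02, adjusted p = 0.000136). Cyp17a1, the enzyme that leads on to androgens, had 0.45, 3.04 and 4.71 TPM in MEF_ciHep, against a median of 0 TPM over the 10 MEF_ciEPC libraries (lowest 0, highest 2.87), with overlap, and was higher by a count ratio of 38 (95% counting interval 9.67 to 328, adjusted p = 0.0119). The 5 adrenal and gonadal markers summed to 1.25 to 6.34 TPM in MEF_ciHep and 5.19 to 9.13 TPM in MNF_ciHep. The oxysterol hydroxylase Cyp39a1 had 4.27, 5.15 and 7.45 TPM in MEF_ciHep and was 2.75-fold higher (log2 difference 1.46, adjusted p = 0.0157). Its libraries overlapped only through the ESC-like library labelled MEF_ciEPC series 2 passage 22, at 12.7 TPM, which is part of the summed series 2 sample. The other MEF_ciEPC libraries reached at most 3.35 TPM.

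The 2 members that fell were Cyp1b1, an AhR target, and Cyp2u1, a long-chain fatty acid hydroxylase. Cyp1b1 had 0, 0.37 and 0.13 TPM in MEF_ciHep, against a median of 1.25 TPM over the 10 MEF_ciEPC libraries (lowest 0.12, highest 6.35), and was 6.54-fold lower (log2 difference -2.71, SE 0.64, adjusted p = 0.00264). Cyp2u1 had 1.32, 0.34 and 0.7 TPM in MEF_ciHep, against a median of 3.36 TPM over the 10 MEF_ciEPC libraries (lowest 1.59, highest 4.7), and was 5.38-fold lower (log2 difference -2.43, SE 0.48, adjusted p = 0.000784). The Cyp2u1 libraries did not overlap. In family 4, Cyp4f13 was 2.36-fold higher (log2 difference 1.24, adjusted p = 0.00117) and Cyp4f17 2.12-fold higher (log2 difference 1.08, adjusted p = 0.0283). The Cyp4f17 call was lost without MEF_ciHep replicate 1, without MEF_ciHep replicate 3 or without MEF_ciEPC series 2, and the count of members that fell was 4 without MEF_ciEPC series 1.

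Of 14 receptors and regulators of P450 genes outside the family (13 tested), 9 were higher and 0 lower in MEF_ciHep than in MEF_ciEPC. Nr1i2, which encodes PXR, had 13.1, 11.2 and 7.4 TPM in MEF_ciHep, against a median of 0 TPM over the 10 MEF_ciEPC libraries (lowest 0, highest 1.79), and was 53.4-fold higher (log2 difference 5.74, adjusted p = 0.00014). Hnf4a had 98, 130.3 and 70.1 TPM in MEF_ciHep, against a median of 17.2 TPM over the 10 MEF_ciEPC libraries (lowest 1.55, highest 52.3), and was 4.66-fold higher (log2 difference 2.22, adjusted p = 0.000957). Of 15 genes of electron supply and heme synthesis, all tested, 6 were higher and 0 lower. Por had 344, 286 and 440.4 TPM in MEF_ciHep, against a median of 77.1 TPM over the 10 MEF_ciEPC libraries (lowest 54, highest 149), and was 4.94-fold higher (log2 difference 2.30, SE 0.26, adjusted p = 6.59e-06). Nr1i3, which encodes CAR, was the regulator that did not pass the low-count filter. It had 0.68, 0 and 0.51 TPM in MEF_ciHep and 0 to 0.69 TPM in the MEF_ciEPC libraries. All 5 members known as CAR and PXR targets (Cyp2a5, Cyp2b10, Cyp2c55, Cyp3a11 and Cyp3a13) were called higher. Of these, Cyp2a5, a coumarin hydroxylase, had 0, 31.1 and 9.4 TPM in MEF_ciHep and 0 TPM in each of the 10 MEF_ciEPC libraries, with 1 MEF_ciHep library at 0 TPM. The summed level of the 5 targets was 109.9 to 264 TPM in MEF_ciHep and 50.1 to 93.6 TPM in pHep. Without Cyp3a13 it was 22.5, 147.6 and 34.9 TPM in MEF_ciHep and 44.2 and 37.8 TPM in pHep, so 2 of the 3 MEF_ciHep libraries then lay below pHep.

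**Figure D3:**
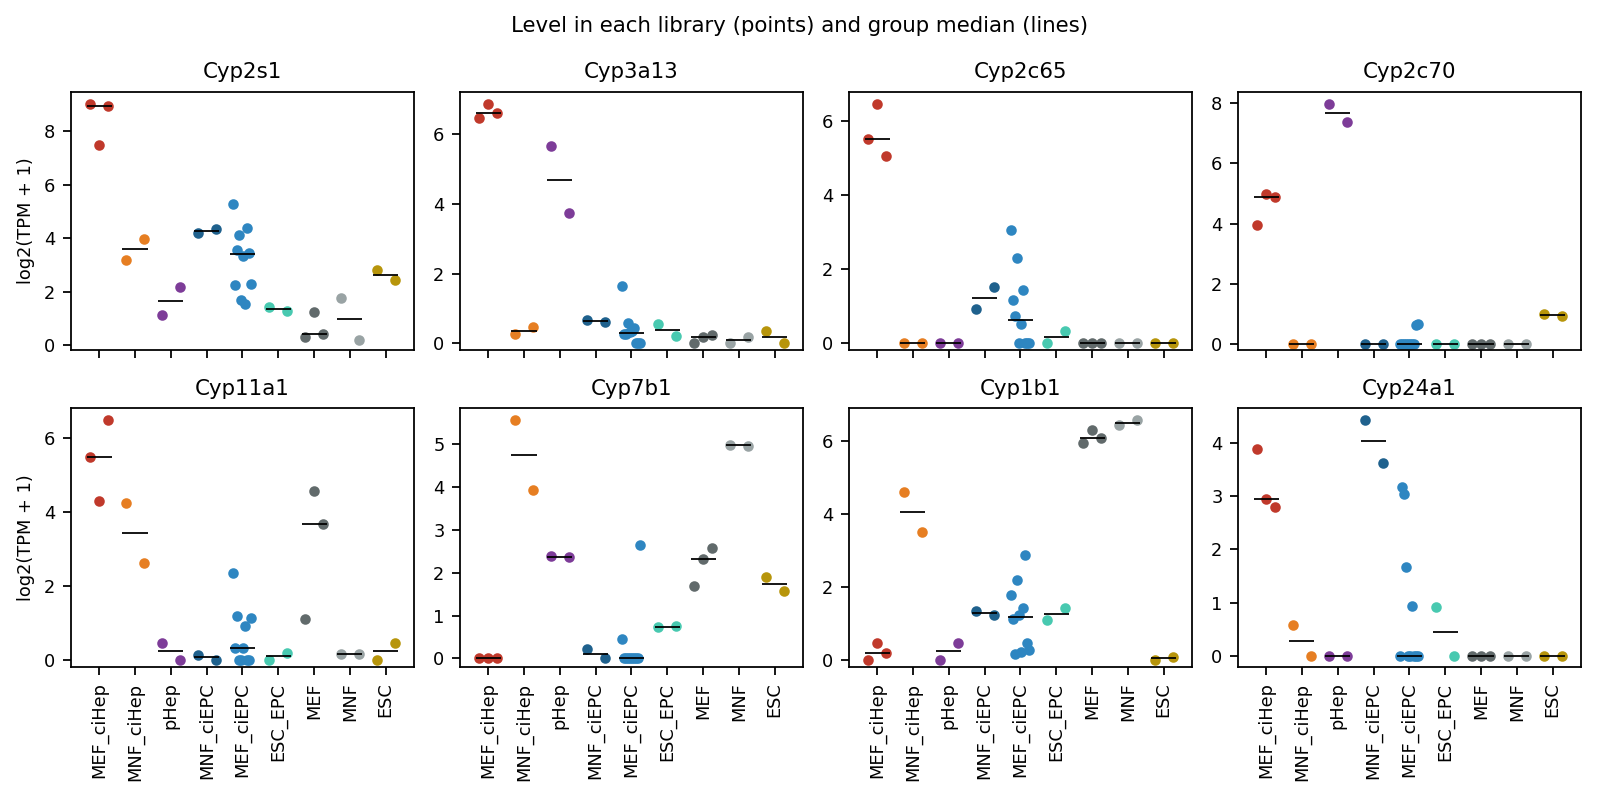
Level of 8 members as log2(TPM + 1), with 1 point per library, 1 column per group and a line at the group median. Cyp2s1, Cyp3a13 and Cyp2c65 are highest in MEF_ciHep and Cyp2c70 in pHep, and Cyp7b1 and Cyp1b1 are near 0 in MEF_ciHep and present in MNF_ciHep.

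MEF_ciHep was set against pHep to ask how close its P450 profile came to that of primary hepatocytes. In MEF_ciHep, 8 members were higher and 20 lower, where 15.1% of all genes tested were called higher and 10.8% lower. The median log2 difference was -0.99 over the 52 members tested and 0.01 over all genes. The 2 groups shared 29 members at 1 TPM or more, which is 76.3% of those in MEF_ciHep and 52.7% of those in pHep. The 9 members at that level in MEF_ciHep and not in pHep were Cyp11a1, Cyp17a1, Cyp24a1, Cyp2c55, Cyp2c65, Cyp2c66, Cyp2d34, Cyp2w1 and Cyp46a1. DESeq2 called 5 members higher and 10 lower.

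Cyp2s1 had 528, 177 and 498 TPM in MEF_ciHep, against 1.2 and 3.54 TPM in pHep, and was 287-fold higher (log2 difference 8.17, SE 0.73, adjusted p = 8.58e-07). Cyp2c65 and Cyp2c55 had no count in either pHep library and were at least 96-fold higher (adjusted p = 0.000397) and at least 72.7-fold higher (adjusted p = 0.00141). Cyp11a1 had 0.38 and 0 TPM in pHep and was higher by a count ratio of 104 (95% counting interval 28.6 to 860.2, adjusted p = 0.000678). Cyp24a1, which inactivates the vitamin D hormone, had 13.7, 6.66 and 5.98 TPM in MEF_ciHep and 0 TPM in every pHep library, and was at least 22.1-fold higher (adjusted p = 0.012). Within Cyp2d, Cyp2d12 was 23.9-fold higher (log2 difference 4.58, adjusted p = 0.00365) and Cyp2d34 higher by a count ratio of 49.7 (95% counting interval 8.75 to 1977, adjusted p = 0.0215), and the call of Cyp2d12 was lost in DESeq2. Cyp3a13 was 2.85-fold higher (log2 difference 1.51, SE 0.48, adjusted p = 0.0221), with 49.4 and 12.3 TPM in pHep. The Cyp3a13 call was lost without MEF_ciHep replicate 2, without pHep replicate 2, in DESeq2 and with the 10 MEF_ciEPC libraries as separate samples.

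The members that were lower in MEF_ciHep covered bile acid, steroid, fatty acid and epoxygenase roles. Cyp2c70, the member with the highest level in pHep, had 14.4, 30.7 and 28.6 TPM in MEF_ciHep, against 250.2 and 165 TPM in pHep, and was 9.33-fold lower (log2 difference -3.22, SE 0.39, adjusted p = 0.000175). Cyp2a12, which hydroxylates bile acids, had 0.98, 1.55 and 0.78 TPM in MEF_ciHep, against 23.4 and 87.8 TPM in pHep, and was 47.9-fold lower (log2 difference -5.58, SE 0.74, adjusted p = 0.000473). The groups did not overlap for either gene. Cyp21a1, an adrenal steroid hydroxylase, had 0, 0.77 and 0 TPM in MEF_ciHep, against 40.5 and 18.3 TPM in pHep, and was lower by a count ratio of 108 (95% counting interval 36.2 to 532, adjusted p = 0.00165), a call that was lost in DESeq2. The oxysterol hydroxylase Cyp7b1 had 0 TPM in every MEF_ciHep library and 4.28 and 4.12 TPM in pHep, and was at least 19.3-fold lower (adjusted p = 0.00145). Cyp39a1, the hydroxylase of a different oxysterol, was 6.58-fold lower (log2 difference -2.72, adjusted p = 0.000145).

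Of 17 family 4 members, 0 were higher and 5 lower in MEF_ciHep than in pHep, and 2 of the 4 PPAR-alpha targets were lower. Cyp4a10 had 0, 0.84 and 0.57 TPM in MEF_ciHep, against 15.4 and 7.58 TPM in pHep, and was 23.2-fold lower (log2 difference -4.54, SE 0.91, adjusted p = 0.00626). Cyp4v3, a fatty acid hydroxylase, had 4.69, 3.95 and 3.06 TPM in MEF_ciHep, against 57 and 44.2 TPM in pHep, and was 14-fold lower (log2 difference -3.81, SE 0.46, adjusted p = 1.85e-05). Among epoxygenases, Cyp2j6 had 5.63, 12.3 and 2.34 TPM in MEF_ciHep, against 34.6 and 42.2 TPM in pHep, and was 5.76-fold lower (log2 difference -2.53, adjusted p = 0.000317). Cyp2j5 was at least 36.9-fold lower (adjusted p = 0.0139), and Cyp2c44 7.55-fold lower (log2 difference -2.92, adjusted p = 0.00479). Cyp2f2, a form of lung and periportal liver, was 30.1-fold lower (log2 difference -4.91, adjusted p = 0.0033). Cyp2e1, the ethanol-oxidising form, had 0, 1.41 and 1.32 TPM in MEF_ciHep and 20.4 and 2.38 TPM in pHep and was not called. Among the regulators, Nr1h4, which encodes the bile acid receptor FXR, had 1.26, 1.14 and 0.67 TPM in MEF_ciHep, against 36.4 and 37.7 TPM in pHep, and was 37.8-fold lower (log2 difference -5.24, adjusted p = 0.000244). Ppara was 8.72-fold lower (log2 difference -3.12, adjusted p = 0.00163) and Hnf4a 3.38-fold lower (log2 difference -1.76, adjusted p = 0.00334). Of the 14 regulators, 5 were lower and 1 was higher, the circadian factor Dbp at a log2 difference of 5.59 (adjusted p = 2.02e-06).

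**Figure D4:**
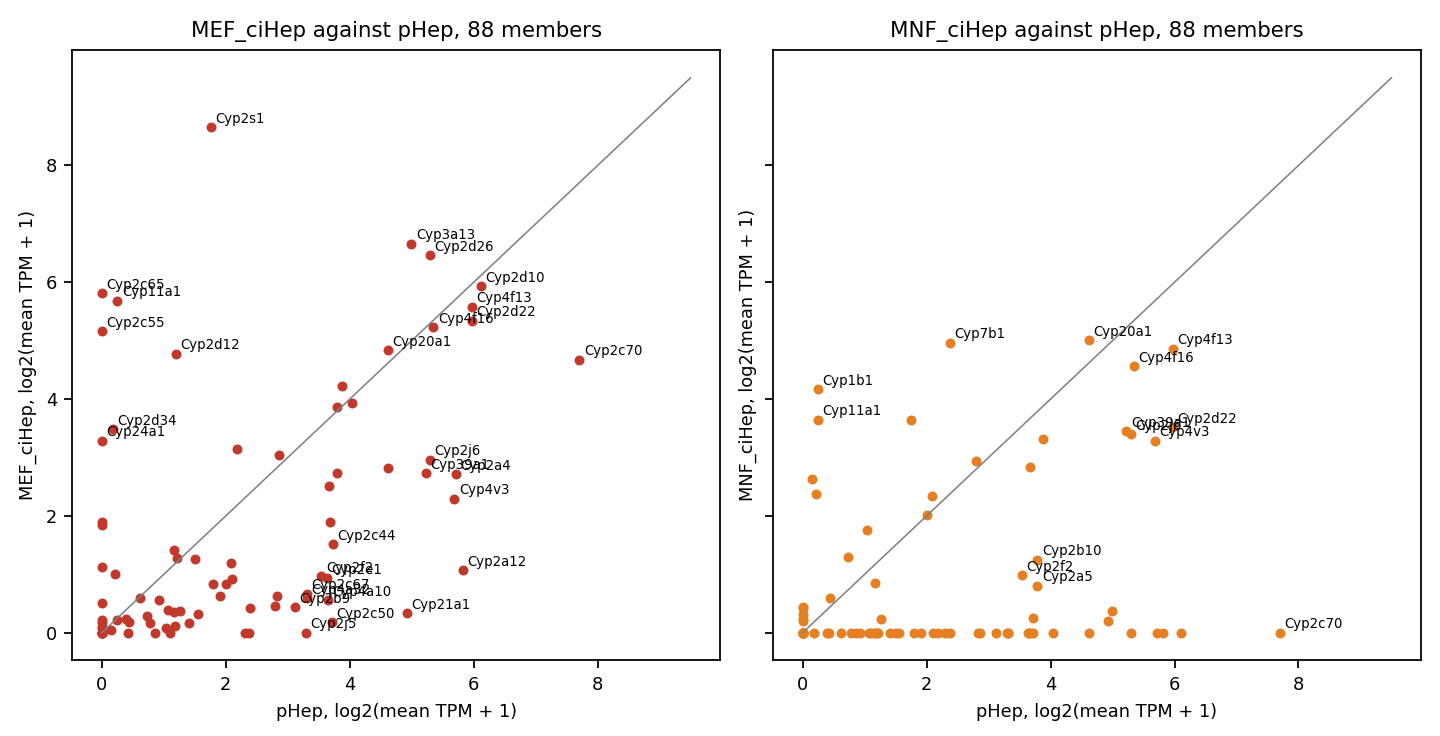
Mean level of each of the 88 members in MEF_ciHep (left) and MNF_ciHep (right) on the vertical axis against pHep on the horizontal axis, both as log2(mean TPM + 1), with a line of equality. In MEF_ciHep, Cyp2d10, Cyp2d22, Cyp2d26, Cyp4f13 and Cyp4f16 lie near the line and Cyp2s1 and Cyp2c65 far above it, and in MNF_ciHep 11 of the 26 members at 10 TPM or more in pHep lie at 0.

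The pHep libraries themselves differed, which bears on every comparison with this group. Replicate 1 had 1.29 TPM of Xist and 21.9 TPM of the Y-linked gene Ddx3y, and replicate 2 had 367 TPM and 0 TPM. Of 30 members at 10 TPM in either library, 7 were at least 4-fold apart, 4 of them higher in replicate 1 and 3 in replicate 2. Of 6 members known as female-biased in adult mouse liver, 5 were higher in replicate 2, and they summed to 9.08 TPM in replicate 1 and 127 TPM in replicate 2. Cyp2a4, a steroid hydroxylase of this list, had 0.64 and 103 TPM in pHep and made up most of the replicate 2 sum. Both male-biased members, Cyp2d9 and Cyp7b1, were higher in replicate 1, with sums of 31.6 and 23.8 TPM in pHep. Cyp7b1 was close to equal, at 4.28 and 4.12 TPM. The male-biased Cyp4a12a and Cyp4a12b, outside the member rule, were higher in replicate 2. They had 2.99 and 9.65 TPM, and 1.11 and 2.2 TPM, in pHep. All 7 pericentral members were higher in replicate 1, and they summed to 81.1 TPM there and 19.4 TPM in replicate 2. Among them Cyp2c50 had 23.2 and 0.99 TPM in pHep and Cyp2e1 20.4 and 2.38 TPM in pHep. With 1 library of each kind these are descriptions with no test.

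**Figure D5:**
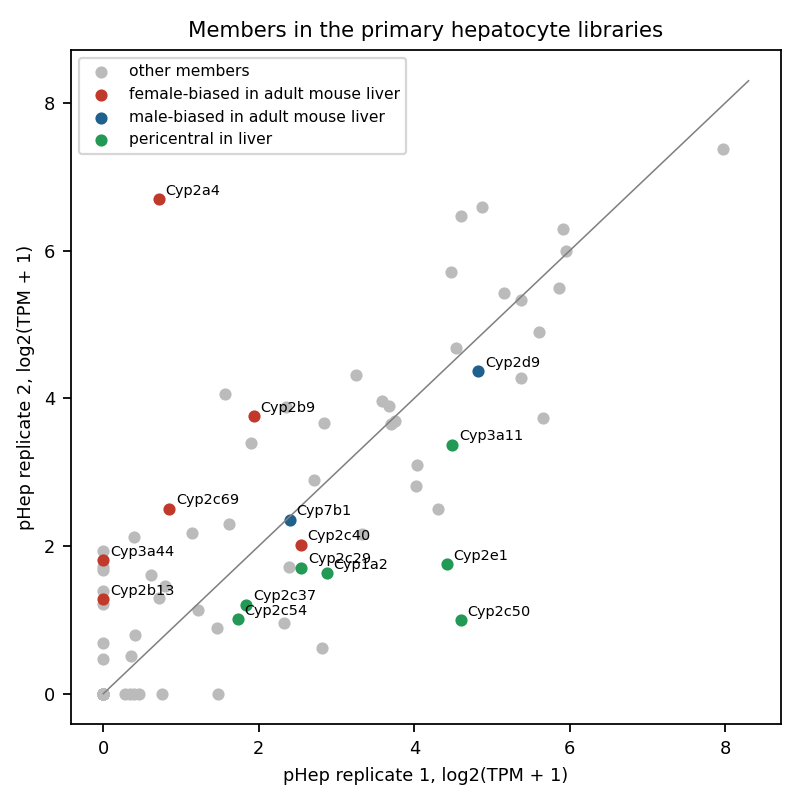
Level of each of the 88 members in pHep replicate 2 (vertical) against pHep replicate 1 (horizontal), as log2(TPM + 1), with a line of equality and members known as female-biased, male-biased or pericentral in colour. Cyp2a4 and Cyp2b9 lie above the line, and the 7 pericentral members, with Cyp2c50 and Cyp2e1 farthest, lie below it.

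For the neonatal label, MNF_ciHep was set against MNF_ciEPC. In MNF_ciHep, 10 members were higher and 1 lower, where 19.5% of all genes tested were called higher and 10.8% lower. The median log2 difference was 0 over the 52 members tested and 0.05 over all genes. The 15 Cyp2c, 8 Cyp2d and 7 Cyp3a members gave no call in this comparison, in which families 1 to 3 had 4 higher and 0 lower. Cyp7b1 had 46.1 and 14.2 TPM in MNF_ciHep, against 0.16 and 0 TPM in MNF_ciEPC, and was higher by a count ratio of 465 (95% counting interval 82.4 to 18453, adjusted p = 7.68e-05). Cyp1b1 had 23.6 and 10.3 TPM in MNF_ciHep, against 1.53 and 1.36 TPM in MNF_ciEPC, and was 13.4-fold higher (log2 difference 3.74, SE 0.45, adjusted p = 1.76e-05). Both were also high in the starting fibroblasts, where Cyp7b1 had 30.5 and 30.2 TPM in MNF and Cyp1b1 86.5 and 94.7 TPM in MNF. The fibroblast markers other than Pdgfra moved with these members. Pdgfra went the other way and was lower in both MNF_ciHep libraries than in both MNF_ciEPC libraries. Col1a1, a fibrillar collagen, had 412 and 203 TPM in MNF_ciHep, against 0.34 and 0.33 TPM in MNF_ciEPC, and Dcn, which encodes decorin, had 781 and 249 TPM in MNF_ciHep, against 0.2 and 0.22 TPM in MNF_ciEPC. The 6 markers summed to 1131 to 2392 TPM in MNF_ciHep and 478 to 587 TPM in MNF_ciEPC, where Pdgfra made up most of the sum, and their part in these results was not tested.

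Cyp1a1, the classical AhR target, had 6.4 and 6.94 TPM in MNF_ciHep and 0 TPM in every MNF_ciEPC library, and was at least 35.3-fold higher (adjusted p = 0.0003). Unlike Cyp1b1 it was at 0 TPM in both MNF libraries. Of the AhR targets outside the family, 3 of 5 were higher and 0 lower. Aldh3a1, an aldehyde dehydrogenase, had 26.6 and 37.2 TPM in MNF_ciHep and was 63-fold higher (log2 difference 5.98, adjusted p = 0.000333). Ahr itself had 53.7 and 52.9 TPM in MNF_ciHep, against 1.23 and 1.61 TPM in MNF_ciEPC, and was 42.2-fold higher (log2 difference 5.40, SE 0.39, adjusted p = 3.55e-07). Cyp11a1 had 17.8 and 5.2 TPM in MNF_ciHep, against 0.1 and 0 TPM in MNF_ciEPC, and was higher by a count ratio of 147 (95% counting interval 25.4 to 5897, adjusted p = 0.0022). Cyp11b1, which catalyses the last step of corticosterone synthesis, had 8.03 and 2.4 TPM in MNF_ciHep and 0 TPM in every MNF_ciEPC library, and was at least 40.1-fold higher (adjusted p = 0.00615). Its libraries did not overlap, but the call was lost without MNF_ciHep replicate 1 or without MNF_ciEPC replicate 1. The partner enzyme Hsd3b6, a steroid dehydrogenase, had 7.51 and 4.14 TPM in MNF_ciHep and 0 TPM in every MNF_ciEPC library, and was at least 16.1-fold higher (adjusted p = 0.00568).

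Cyp39a1 was 23-fold higher (log2 difference 4.52, adjusted p = 4.69e-05), Cyp4v3 11-fold higher (log2 difference 3.46, adjusted p = 0.00037) and Cyp2j6 9.36-fold higher (log2 difference 3.23, adjusted p = 0.000476), each with all MNF_ciHep libraries above the progenitors. The member that fell was Cyp24a1, with 0.5 and 0 TPM in MNF_ciHep, against 20.4 and 11.3 TPM in MNF_ciEPC, which was lower by a count ratio of 43.6 (95% counting interval 14.8 to 213, adjusted p = 0.0138). The Cyp24a1 call was lost without MNF_ciHep replicate 1, MNF_ciHep replicate 2 or MNF_ciEPC replicate 1, so the count of members that fell was 0 without any of them. Por was 10.6-fold higher (log2 difference 3.41, adjusted p = 1.16e-06), with 725 and 351 TPM in MNF_ciHep and 52.4 and 60.8 TPM in MNF_ciEPC, and 5 of the 15 electron supply and heme genes were higher and 0 lower. Hnf4a was 6.6-fold lower (log2 difference -2.72, adjusted p = 0.0022), with 1.5 and 5.69 TPM in MNF_ciHep, against 20.1 and 36 TPM in MNF_ciEPC.

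Against pHep, MNF_ciHep had 6 members higher and 27 lower, where 18.4% of all genes tested were called higher and 13.4% lower. This comparison shares the pHep libraries with the one above, so the values are only set side by side. The median log2 difference was -2.68 over the 52 members tested and 0.11 over all genes. With groups that had no count set at the 3-count bound, the median over these members was -2.06. Cyp2c70 had 0 TPM in every MNF_ciHep library and was at least 337-fold lower (adjusted p = 1.23e-05). Cyp2d10 was at least 105-fold lower (adjusted p = 4.97e-05), Cyp2a12 at least 82-fold lower (adjusted p = 0.000482) and Cyp3a11 at least 37.7-fold lower (adjusted p = 0.00935), all with 0 TPM in both MNF_ciHep libraries. Cyp2a4 was also at 0 TPM and was at least 69.7-fold lower (adjusted p = 0.0104), a call lost without MNF_ciHep replicate 1, without pHep replicate 2 and in DESeq2. The 6 members that were higher than in pHep included none of families 3 and 4. Cyp1b1 was higher by a count ratio of 109 (95% counting interval 29.8 to 902, adjusted p = 8.1e-06). Cyp7b1 was 6.36-fold higher (log2 difference 2.67, adjusted p = 0.0115). The fibroblast markers summed to 1131 to 2392 TPM in MNF_ciHep and 5.37 to 147 TPM in pHep, and their part in these 2 results was not tested. Cyp11b1 was higher by a count ratio of 43.3 (95% counting interval 7.42 to 1744, adjusted p = 0.0374). Cyp11a1 was higher by a count ratio of 26.4 (95% counting interval 7.0 to 223, adjusted p = 0.0193). Cyp46a1, the cholesterol hydroxylase of neurons, had 6.24 and 2.15 TPM in MNF_ciHep, against 0.31 and 0 TPM in pHep, and was higher by a count ratio of 22.5 (95% counting interval 3.7 to 923, adjusted p = 0.0181). Cyp2s1 was 7.33-fold higher (log2 difference 2.87, adjusted p = 0.0141). The number of higher members was 2 without MNF_ciHep replicate 1, 2 without pHep replicate 1 and 1 without pHep replicate 2, and DESeq2 called 16 members lower. Of the 14 regulators, 2 were higher and 8 lower.

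MEF_ciHep and MNF_ciHep were also compared directly. In MEF_ciHep, 18 members were higher and 6 lower than in MNF_ciHep, where 16.1% of all genes tested were called higher and 17.8% lower. The median log2 difference was 2.88 over the 52 members tested and -0.04 over all genes. With groups that had no count set at the 3-count bound, the median over these members was 0.87. Of the 18, 16 belonged to families 1 to 3. Cyp2d26 and Cyp2c65 had no count in MNF_ciHep and were at least 101-fold higher (adjusted p = 0.000884) and at least 111-fold higher (adjusted p = 0.000259). Cyp3a13 was higher by a count ratio of 419 (95% counting interval 116 to 3464, adjusted p = 2.7e-06) and Cyp2s1 39.2-fold higher (log2 difference 5.29, adjusted p = 4.04e-06), and none of these libraries overlapped. Cyp11a1 was 5.16-fold higher (log2 difference 2.37, adjusted p = 0.0289), a call lost without MEF_ciHep replicate 3, without either MNF_ciHep replicate, with a replicate block and with the 10 MEF_ciEPC libraries as separate samples. Among the 6 members that were lower in MEF_ciHep, Cyp7b1 was at least 140.2-fold lower (adjusted p = 1.93e-05). Cyp1b1 was 70.4-fold lower (log2 difference -6.14, adjusted p = 6.55e-07). Both were near or at 0 TPM in MEF_ciHep, where the fibroblast markers also summed lower (29.8 to 46.1 TPM, against 1131 to 2392 TPM in MNF_ciHep), and their part was not tested. Cyp11b1 was lower by a count ratio of 109 (95% counting interval 18.7 to 4388, adjusted p = 0.00594), and the epoxygenase relative Cyp2j9 lower by a count ratio of 28.3 (95% counting interval 4.25 to 1204, adjusted p = 0.00115). Cyp1a1 was 15.6-fold lower (log2 difference -3.96, adjusted p = 0.00134), and Cyp2u1 4.69-fold lower (log2 difference -2.23, adjusted p = 0.00318). Ahr, the receptor behind the known induction of Cyp1a1 and Cyp1b1, had 2.48, 5.57 and 6.04 TPM in MEF_ciHep, against 53.7 and 52.9 TPM in MNF_ciHep, and was 10.4-fold lower (log2 difference -3.38, adjusted p = 6.82e-07). Its 5 targets outside the family were split, with 3 lower and 1 higher. The higher one was the glutathione transferase Gsta1, with 2321, 1545 and 943 TPM in MEF_ciHep, against 10.9 and 13.8 TPM in MNF_ciHep. Without MNF_ciHep replicate 1 the number of higher members was 10.

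Whether maturation acted on a member differently for the 2 labelled origins was tested as the difference of the MEF_ciHep minus MEF_ciEPC and the MNF_ciHep minus MNF_ciEPC log2 differences. It was called positive for 6 members and negative for 6, where 12% of all genes tested were called positive and 17.6% negative. The positive ones were Cyp2c65, Cyp4f15, Cyp3a13, Cyp24a1, Cyp2s1 and Cyp2d22. For Cyp2s1 the difference was 6.07 (SE 0.74, adjusted p = 2.97e-05), and Cyp2s1 had 8.06 and 14.9 TPM in MNF_ciHep and 17.3 and 19.4 TPM in MNF_ciEPC. For Cyp2d22 it was 3.05 (SE 0.70, adjusted p = 0.0036), with 9.07 and 11.9 TPM in MNF_ciHep and 5.1 and 9.35 TPM in MNF_ciEPC. The negative ones were Cyp7b1, Cyp1a1, Cyp2j9, Cyp1b1, Cyp39a1 and Cyp2u1. For Cyp1b1 the difference was -6.45 (SE 0.75, adjusted p = 1.96e-05) and for Cyp39a1 -3.06 (SE 0.75, adjusted p = 0.00573). Where 1 group had no count, as for Cyp2c65 and Cyp7b1, the fitted size depends on the prior count. Where neither MNF group had a count, as for Cyp2c70, Cyp2d10, Cyp2d12 and Cyp3a11, the fit had no usable error and could give no call. For Cyp2c70 the difference was 7.68 with an SE of 13376.5. No call for such members therefore does not mean an equal change in the 2 origins. With limma, 17 members were called positive and 7 negative.

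In the step before, MEF_ciEPC was set against MEF to see which fibroblast P450 genes were lost and which appeared. In MEF_ciEPC, 8 members were higher and 7 lower, where 17.6% of all genes tested were called higher and 15.8% lower. Cyp1b1, the member with the highest mean TPM in both fibroblast groups, had a median of 1.25 TPM over the 10 MEF_ciEPC libraries (lowest 0.12, highest 6.35), against 61.7, 78.5 and 67.9 TPM in MEF, and was 44.1-fold lower (log2 difference -5.46, SE 0.43, adjusted p = 1.08e-07). Cyp2j6 was 5.61-fold lower (log2 difference -2.49, adjusted p = 0.000731), and Cyp11a1 17-fold lower (log2 difference -4.09, adjusted p = 0.00255). Cyp11a1 had 1.13, 22.7 and 11.8 TPM in MEF, so the level varied among the starting fibroblasts and was highest in replicate 2. In that library the adrenal and gonadal marker Hsd3b1 had 13.7 TPM and Nr5a1 2.34 TPM, and the 5 such markers summed to 21.1 TPM, against 2.9 and 2.95 TPM in the other MEF libraries. Their part in the Cyp11a1 level was not tested. Cyp2s1 had a median of 9.57 TPM over the 10 MEF_ciEPC libraries (lowest 1.9, highest 38.5), against 0.22, 1.34 and 0.35 TPM in MEF, and was 12.5-fold higher (log2 difference 3.64, SE 0.68, adjusted p = 0.000449). Cyp4f13 was 3.77-fold higher (log2 difference 1.91, adjusted p = 4.75e-05), and neither gene overlapped between the groups. Cyp24a1 had a median of 0 TPM over the 10 MEF_ciEPC libraries (lowest 0, highest 7.94) and 0 TPM in every MEF library, and was at least 13.6-fold higher (adjusted p = 0.0224), a call lost without MEF_ciEPC series 1, without MEF replicate 2 or without MEF replicate 3. The number of higher members was 5, 3 and 3 without MEF replicates 1, 2 and 3 and 4 without MEF_ciEPC series 1, where 3 members were lower.

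MNF_ciEPC had 3 members higher and 7 lower than MNF, where 18.4% of all genes tested were called higher and 21.8% lower. Cyp1b1 had 1.53 and 1.36 TPM in MNF_ciEPC, against 86.5 and 94.7 TPM in MNF, and was 68.1-fold lower (log2 difference -6.09, SE 0.47, adjusted p = 8.26e-08). Cyp7b1 was lower by a count ratio of 389 (95% counting interval 69.3 to 15411, adjusted p = 3.12e-05), and Cyp2j6 13.3-fold lower (log2 difference -3.74, adjusted p = 5.33e-05). Of the 3 higher members, Cyp2s1 was higher (log2 difference 3.75, adjusted p = 0.000297), with 17.3 and 19.4 TPM in MNF_ciEPC and 2.36 and 0.15 TPM in MNF. Cyp24a1 was at least 83.4-fold higher (adjusted p = 0.00197), and Cyp2c65 at least 3.71-fold higher (adjusted p = 0.0378). Cyp24a1 had 20.4 and 11.3 TPM in MNF_ciEPC and 0 TPM in every MNF library, so the groups did not overlap. The Cyp2c65 call was lost without MNF_ciEPC replicate 2 or without either MNF replicate.

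The progenitors of the 2 fibroblast sources gave few P450 calls. MNF_ciEPC had 0 members higher and 1 lower than MEF_ciEPC, where 0.971% of all genes tested were called higher and 3.47% lower. At an unadjusted p under 0.05, edgeR gave 2 members higher and DESeq2 1. After adjustment DESeq2 called 0 higher and limma 1. Cyp39a1 had 0.68 and 0.26 TPM in MNF_ciEPC, against a median of 1.16 TPM over the 10 MEF_ciEPC libraries (lowest 0.59, highest 12.7), and was 4.96-fold lower (log2 difference -2.31, SE 0.61, adjusted p = 0.0381). Its highest progenitor value, 12.7 TPM, was that of the library labelled MEF_ciEPC series 2 passage 22. Without that library the call was lost and the count of lower members was 0, as it was without MEF_ciEPC series 2 or without either MNF_ciEPC replicate.

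ESC_EPC had 5 members higher and 2 lower than ESC, where 18.5% of all genes tested were called higher and 14.7% lower. The Y-linked Ddx3y had 0 TPM in both ESC_EPC libraries, against 21.8 and 27.9 TPM in ESC. Xist had 5.34 and 3.23 TPM in ESC_EPC and 0.38 and 1.81 TPM in ESC. The comparison is therefore between libraries as labelled and not along 1 shown lineage. Cyp2c44, an arachidonic acid epoxygenase, had 23 and 19.9 TPM in ESC_EPC, against 3.1 and 1.29 TPM in ESC, and was 9.22-fold higher (log2 difference 3.20, SE 0.75, adjusted p = 0.0042). Cyp27b1, which activates vitamin D, had 5.07 and 3.97 TPM in ESC_EPC and 0.35 and 0.9 TPM in ESC, and was 5.53-fold higher (log2 difference 2.47, adjusted p = 0.0288). Without any 1 of the 4 libraries the Cyp27b1 call was lost, the number of higher members was 1 to 3 and the number of lower members 0 or 1, and without ESC replicate 2 the Cyp2c44 call was lost. MEF_ciEPC had 5 members higher and 5 lower than ESC_EPC, where 16.8% of all genes tested were called higher and 14.9% lower. Cyp2s1 was 6.77-fold higher (log2 difference 2.76, adjusted p = 0.00428), and Cyp2d22 higher by a count ratio of 13.4 (95% counting interval 4.48 to 66, adjusted p = 0.00291). Cyp2c44, with a median of 1.21 TPM over the 10 MEF_ciEPC libraries (lowest 0, highest 2.83), was 16.2-fold lower (log2 difference -4.02, SE 0.73, adjusted p = 0.000828). Cyp4f39, which handles ultra-long fatty acids in skin, had a median of 0 TPM over the 10 MEF_ciEPC libraries (lowest 0, highest 1.94), against 9.69 and 4.22 TPM in ESC_EPC, and was 25.7-fold lower (log2 difference -4.68, SE 1.06, adjusted p = 0.00404). The Cyp4f39 call was lost in DESeq2 and without ESC_EPC replicate 1. Without ESC_EPC replicate 1 this comparison gave 3 higher and 2 lower members, and without ESC_EPC replicate 2 it gave 3 and 3.

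Over the passages of MEF_ciEPC, 13 members had enough counts to be tested and 0 were called in either direction, where 0.00807% of the 12390 genes tested were called rising and 0.0161% falling. At an unadjusted p under 0.05, edgeR and DESeq2 each gave 0 rising and 2 falling members and limma gave 0 and 1. The lack of calls does not show steady levels, as some errors were wide. Cyp24a1 had a log2 slope of -1.89 per doubling of passage (SE 0.70, edgeR adjusted p = 0.373) and was not called. The ESC-like library labelled series 2 passage 22 is 1 of the 2 libraries at the highest passage, and without it edgeR again called 0 members in either direction. The other, series 1 passage 22, also stood apart from its series in sex-linked genes. It had 0.27 TPM of Ddx3y, against 4.31 to 17.65 TPM at the earlier passages of series 1. Xist was at 872 TPM there, against 88.9 to 332 TPM. The trend was not fitted without that library. Within the 10 libraries, Cyp20a1 ranged from 26.1 to 66.4 TPM and Cyp4f13 from 9.53 to 42.6 TPM, while Cyp2s1 ranged from 1.9 to 38.5 TPM. Cyp24a1 was at 0 TPM in some of the 10 libraries and reached 7.94 TPM in the highest.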

How the data were processed

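Total RNA had been extracted with Trizol and libraries made with an Illumina TruSeq kit, per the labels' protocols. The authors quantified genes with RSEM 1.2.4 on mm10, per the submitters' processing notes; the aligner and annotation release are not given in the sources used here. The deposited expected counts are unnormalized RSEM estimates of reads per gene, and the deposited TPM are the authors' length-scaled levels in each library. Gene length and effective length are per the file headers, and deposited FPKM was not used.

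Groups followed the cell type in the labels, against the source name of the MNF_ciEPC samples, which reads MEF. Expected counts were rounded to whole numbers, and the MEF_ciEPC libraries of each series were summed to 1 sample. The 20 samples were fitted together by quasi-likelihood in edgeR 4.0.16 (R 4.3.3), after TMM scaling and a low-count filter (filterByExpr, minimum count 10), with a common biological coefficient of variation of 0.249. Calls needed a Benjamini-Hochberg adjusted p under 0.05 over all genes tested and a 2-fold difference. The passage trend used the 10 MEF_ciEPC libraries singly, with series and log2 passage as terms and no fold minimum. Each SE printed is the absolute log2 difference or slope divided by the square root of the F statistic of edgeR's test. It is back-calculated and is no usable error where that statistic is near 0, as for Cyp2c70 in the difference between origins. Alternatives were RLE scaling, DESeq2 1.42.0, limma 3.58.1 on log2(TPM + 1), no low-count filter, a replicate block, single MEF_ciEPC libraries, omission of the library labelled MEF_ciEPC series 2 passage 22, and omission of each replicate. Tables and figures used Python 3.11.15, pandas 2.3.3, numpy 2.4.6, scipy 1.17.1 and matplotlib 3.10.9. The 95% counting intervals are exact Clopper-Pearson intervals of how the pooled counts divide between the 2 groups.

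The members, gene lists and tests were chosen with earlier results of these data known. Genes are named as up to 12 called members per comparison by mean TPM in the higher group, the members with the highest levels in each group, and members of the fixed lists. Other members named were chosen after their values were seen. Overlapping genes were looked up in GENCODE M21 (GRCm38), and promoter sequences are from RefSeq on GRCm38.p6. Simulated data with known changes gave, for MEF_ciHep against MEF_ciEPC, recovery of 9 of 60 genes with a 2-fold change, 69 of 73 with 4-fold and 67 of 67 with 8-fold. Among the 15650 genes tested there, 8 that had been given no change were called. For the difference between the MEF and MNF origins the simulation recovered 1 of 60, 31 of 73 and 55 of 67, and for the passage trend 198 of 200 at 1.41-fold per doubling of passage. The simulation gave every gene the same spread and changed no low-count genes. In the real trend fit, Cyp2s1 had an SE of 0.38 and Cyp24a1 an SE of 0.70. The recovery for the trend therefore does not carry over to such members. At 1439670 to 6133147 expected counts per library, members with few counts carry wide errors.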

Additional observations from a re-analysis of the deposited data

Results flagged for a closer look

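In the 10 MEF_ciEPC libraries, Cyp39a1 had 12.7 TPM in the library labelled series 2 passage 22, the one that resembled ESC, apart from the other 9 by the criterion for a single distant value (Dixon's test, which chance alone meets in about 1 in 20 groups; 17 members were tested and 1 met it). The remaining values are differences between the MEF and MNF origins in the log2 change of a member on maturation, MEF origin minus MNF origin, each called by edgeR's quasi-likelihood test of that difference. They were 11.21 for Cyp2c65, 10.36 for Cyp4f15, 9.11 for Cyp3a13, 7.92 for Cyp24a1, 6.07 for Cyp2s1 and 3.05 for Cyp2d22. They were -12.69 for Cyp7b1, -7.73 for Cyp1a1, -6.50 for Cyp2j9, -6.45 for Cyp1b1, -3.06 for Cyp39a1 and -1.94 for Cyp2u1. Where a group had no count the size depends on the prior count. The Cyp24a1 value joins 13.7, 6.66 and 5.98 TPM in MEF_ciHep and a median of 0 TPM over the 10 MEF_ciEPC libraries (lowest 0, highest 7.94) with 0.5 and 0 TPM in MNF_ciHep and 20.4 and 11.3 TPM in MNF_ciEPC.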

How the results depend on the processing

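Counts of members called stayed within 1.5 times of the reported count in 147 of 166 recomputations under other settings and in 77 of 106 that left out a replicate. No value of the named genes turned its direction, while calls were lost in 52 of 774 recomputations under other settings and 91 of 552 that left out a replicate. The cause of the changes below was not tested. DESeq2 called 5 members higher and 10 lower in MEF_ciHep against pHep, and 16 lower in MNF_ciHep against pHep. With limma the lower members numbered 2 in MNF_ciHep against MNF_ciEPC, 4 in MEF_ciEPC against MEF, 1 in ESC_EPC against ESC and 0 in MNF_ciEPC against MEF_ciEPC, where 1 was higher. The positive differences between the MEF and MNF origins numbered 17 with limma. With the 10 MEF_ciEPC libraries as separate samples there were 0 lower members in MNF_ciHep against MNF_ciEPC and in MNF_ciEPC against MEF_ciEPC, 1 higher in ESC_EPC against ESC and 3 higher in MEF_ciEPC against ESC_EPC. Without a low-count filter 1 member was higher in MNF_ciEPC against MEF_ciEPC, and without the library labelled MEF_ciEPC series 2 passage 22 there were 0 lower.

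Replicate numbers gave no sign of pairing. Deviations from the group means correlated at -0.163 to 0.0851 over the 73 same-number pairs, 0 of them above 0.1 and 1 below -0.1, and 3 of 20 samples were closest to their own number. With a replicate block, 5 members were higher in MEF_ciEPC against MEF, 1 was higher and 0 were lower in MNF_ciEPC against MEF_ciEPC, and 1 was lower in ESC_EPC against ESC.

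Leaving out single replicates gave 24 to 30 higher and 2 to 4 lower members in MEF_ciHep against MEF_ciEPC, 9 to 11 and 0 to 1 in MNF_ciHep against MNF_ciEPC, and 6 to 9 and 15 to 19 in MEF_ciHep against pHep. It gave 1 to 5 and 18 to 25 in MNF_ciHep against pHep, 10 to 19 and 5 to 8 in MEF_ciHep against MNF_ciHep, 3 to 6 and 3 to 7 in MEF_ciEPC against MEF, and 2 to 3 and 6 to 7 in MNF_ciEPC against MNF. It gave 0 to 1 and 0 to 1 in MNF_ciEPC against MEF_ciEPC, 1 to 3 and 0 to 1 in ESC_EPC against ESC, 3 to 7 and 2 to 5 in MEF_ciEPC against ESC_EPC, and 6 to 7 and 4 to 6 for the differences between the MEF and MNF origins. A lone remaining sample is assumed to vary like the other groups. Depth limits members with few counts, and a member without counts in a group of 2 libraries may still be transcribed below the floor of 3 counts.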
